A study of Schizosaccharomyces pombe with 4 samples.

Results

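Of 5186 annotated introns in nuclear protein-coding genes of the fission yeast Schizosaccharomyces pombe, 282 introns in 265 genes had at least 2 same-strand long reads, summed over 4 libraries, whose 3′ end lay exactly at the last base of the upstream exon. Such a read is a candidate for the free 5′ exon left by the first step of splicing. The members were chosen by these read ends, so the numbers of ends at them are a description and no p is given for a member. Libraries were compared over all 5186 introns, or over those with enough reads, whether members or not, and by the state of other introns in the same reads, which the choice did not use.

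Each read is a cDNA copy of 1 nuclear RNA without poly(A), sequenced on a Pacific Biosciences instrument, and the data are 1 aligned interval per read. Whether a read reaches the RNA's own 5′ end was not tested. The prp2-1 library came from cells labelled leu1.32 prp2-C387Y, and the 37 °C wild type from strain L972, h-. Both cultures grew at 26 °C and were held at 37 °C for 2 hours before harvest. The 2 wild-type libraries at 30 °C came from strain L972, h- (replicate 1) and from SP286, h+, in which prp5 is replaced by a KanMx-marked wild-type prp5 (replicate 2). All cells grew exponentially in YES medium, and cultures started from single colonies. The 37 °C groups have 1 library each and no replicate check, and any interval or test on reads of a pair of libraries compares those libraries, not the conditions.

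Splicing proceeds in 2 steps. In the first, the branch-point adenosine attacks the 5′ splice site, which frees the 3′ end of the upstream exon and closes the intron into a lariat still joined to the downstream exon. In the second, the freed exon is joined to the downstream exon. The spliceosome holds the freed exon between the steps, so RNA isolated with nuclear complexes can carry intermediates whose 3′ end is the last exon base. Prp2 of fission yeast is the large subunit of U2AF, the factor that binds the pyrimidine-rich tract upstream of the 3′ splice site, and prp2-1 is a temperature-sensitive allele.

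The 5′ splice sites of the 14 introns with the most read ends are shown because the description of single sites turns on them. They are the leading 12 with all sites tied at the lowest count kept. Each line gives the last 10 exon bases in lower case, the first 6 intron bases in capitals, and the next 4 in lower case, 5′ to 3′ on the gene's strand, read from the RefSeq assembly ASM294v3. A candidate read ends at the lower-case base just before the capitals.
ste13 intron 1 (chrII:3191646-3191665, plus strand): gaaaacagagGTGAGTgact
mpe1 intron 1 (chrII:3661856-3661875, minus strand): ttccgttgaaGTAAGTatct
nup45 intron 1 (chrI:753146-753165, minus strand): caaaaccaaaGTATGTttct
gnd1 intron 4 (chrII:231555-231574, plus strand): gaagccaaagGTAATGatat
atf1 intron 1 (chrII:1546455-1546474, plus strand): agtcaaatagGTATGTgttt
ptl2 intron 1 (chrI:3030262-3030281, minus strand): gttcaagaagGTAGGAtgat
rps2502 intron 2 (chrI:4208544-4208563, minus strand): gctatctacaGTAAGTttaa
gnd1 intron 3 (chrII:230670-230689, plus strand): ccgacaagggGTAAGTtttg
gua1 intron 1 (chrII:1707422-1707441, plus strand): cccattactgGTAAGTaaat
nup61 intron 2 (chrIII:732742-732761, minus strand): ccagcagaagGTAATGcgtt
SPAC30C2.08 intron 1 (chrI:4645713-4645732, plus strand): gtggaacagaGTATGTaatt
dnt1 intron 1 (chrII:3716899-3716918, minus strand): cttttgaatcGTAAGCatag
srp68 intron 1 (chrIII:380650-380669, minus strand): tagacaaaagGTAAGAggat
rpl2302 intron 1 (chrIII:1311814-1311833, plus strand): agttgtggtgGTAAGTaata

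The 3′ ends of 4 introns are shown for the spacing of a branch-point-like motif from the 3′ splice site, which is compared over all introns further on. The motif letters searched were CTAAC and CTAAT, together with CTGAC and also CTGAT, on the intron's own strand, over the whole intron after its first 6 bases. Where matches were several, the one nearest the intron's end was taken. Each line holds the last 30 intron bases with the match in capitals. The match's second-last base, taken as the branch adenosine, lay 7 nt from the intron's last base in gua1, 11 nt in gnd1 intron 3 and nup61, and 22 nt in srp68.
gua1 intron 1 end (chrII:1707734-1707763, plus strand): atataaatatgttagtttaCTAACctttag
gnd1 intron 3 end (chrII:231467-231496, plus strand): tcgaatgtgaatatgCTAACatcattgtag
nup61 intron 2 end (chrIII:732704-732733, minus strand): gtacttcatttctttCTAACgttttcttag
srp68 intron 1 end (chrIII:380605-380634, minus strand): ttgaCTAATtatgtacttcttttgttatag

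The libraries held 33746 reads in prp2-1, 32176 in the 37 °C wild type, 123756 in replicate 1 and 45318 in replicate 2. Their median genomic span was 771, 890, 256 and 436 nt in the same order, so the 30 °C reads were shorter. A read was scored at an intron it crossed by at least 10 nt on both sides, as spliced or unspliced, which gave 8727, 11313, 16514 and 9805 scored crossings. Intervals are 95% intervals for counting error only. PCR copies of 1 molecule cannot be removed, because the files hold no read sequence, and separate molecules with the same ends look the same.

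Over all annotated introns, 1582 reads ended at the last exon base, 767 of them at the 282 members. A further 815 introns had 1 such read, and 4089 had none. Of the members, 180 had exactly 2 ends, 61 had 3, and 41 had 4 or more. The members with 2 ends and the 815 introns with 1 end stand on either side of the threshold and differ by a single read. At 22 members all ends belonged to reads with the same start, end and blocks in 1 library, and 260 members had at least 2 distinct reads.

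Ends at members were few at 37 °C, as were ends over all introns, at 81 in prp2-1 and 123 in the wild type. Replicates 1 and 2 had 874 and 504. Members thus pass the rule mostly through 30 °C reads, and their counts by library in part restate the choice and the read numbers. In prp2-1, 35 members held 39 ends, and in the 37 °C wild type 37 members held 42 ends. Replicate 1 had 437 ends at 234 members and replicate 2 had 249 ends at 156 members. Both 30 °C replicates had an end at 113 members, while 85 members had ends in replicate 1 alone and 27 in replicate 2 alone. An end at 37 °C was present at 68 members, of which 5 had none at 30 °C. In all, 116 members had their ends in 1 library. Without replicate 1 the rule would find 86 introns, and without replicate 2 it would find 162. The 2 members with an end in every library were intron 2 of nup61, which encodes a nucleoporin, and intron 1 of gad8, which encodes an AGC-family protein kinase. Most genes had 1 member and 16 genes had 2 or more. All 3 introns of rps13, a small-subunit ribosomal protein gene, were members, with 2 ends each.

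The position itself stood out from its neighbours in every library. In prp2-1, 81 reads ended at the last exon base of an annotated intron, against a mean of 5.64 reads per position over the 25 positions on each side. In the 37 °C wild type 123 reads ended there, against 6.04 per flanking position. Replicate 1 had 874 reads at the site and 24.2 per flanking position, and replicate 2 had 504 and 9.80. The ratio of site to flank was 14.4 (11.1 to 18.4) in prp2-1, 20.4 (16.4 to 25.2) in the 37 °C wild type, 36.1 (33.0 to 39.4) in replicate 1 and 51.4 (45.3 to 58.4) in replicate 2, with exact conditional intervals. The ends were sharp but not confined to 1 base: 1 nt upstream of the site lay 14, 22, 128 and 47 ends in the same order, and 1 nt downstream 4, 14, 55 and 19.

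**Figure D1:**
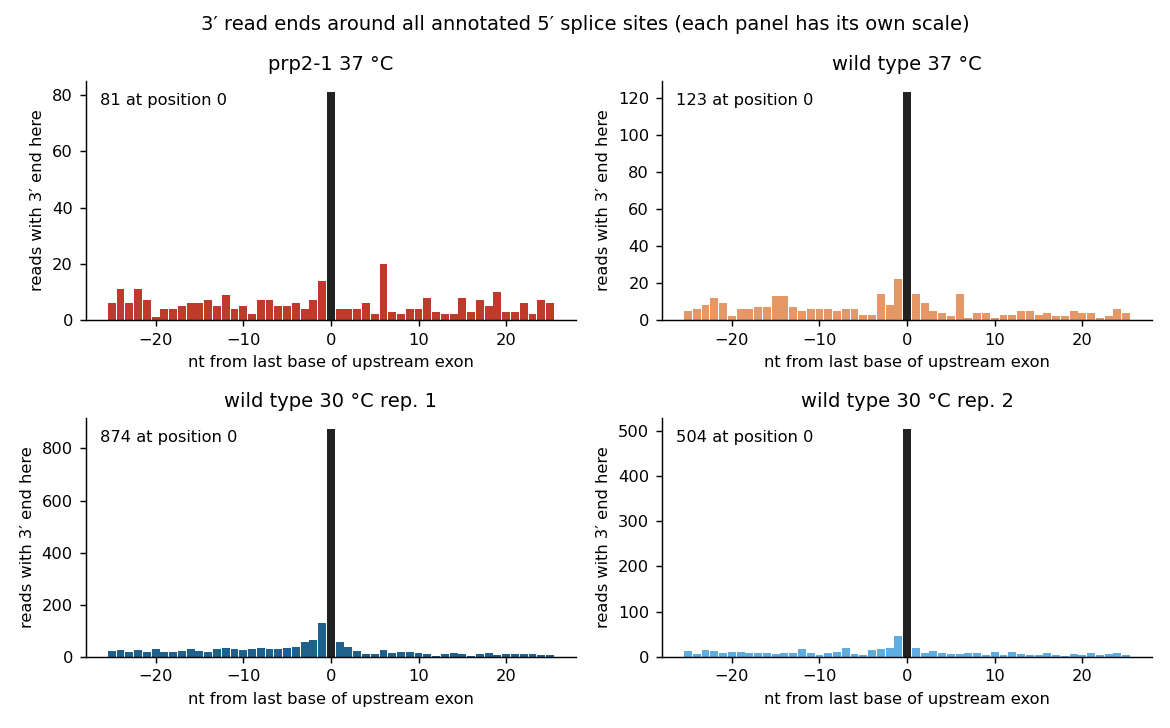
3′ read ends by distance in nt from the last base of the upstream exon (0, black bar), summed over all 5186 introns, with 1 panel and 1 linear scale per library. The bar at 0 holds 81 reads in prp2-1, 123 in the 37 °C wild type, 874 in replicate 1 and 504 in replicate 2, each above every other position in its panel.

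At the places checked for 3′ ends where no first-step intermediate should lie, ends were near their surroundings. At the last base of the intron, 6, 5, 25 and 11 same-strand reads ended in prp2-1, the 37 °C wild type, replicate 1 and replicate 2. The ratios to the flanks there were 0.929 (0.338 to 2.04), 0.965 (0.311 to 2.28), 1.03 (0.664 to 1.53) and 1.19 (0.588 to 2.14). Opposite-strand reads ended at the last exon base 0, 2, 0 and 2 times. None of the members lay within 5 nt of a same-strand non-coding gene end.

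Some of the site reads can be spliced reads whose last few bases beyond the intron were too short to align across it. Spliced reads reaching only 1 to 10 nt into the downstream exon numbered 1 in prp2-1, 5 in the 37 °C wild type, 21 in replicate 1 and 6 in replicate 2. For overhangs of 11 to 40 nt the mean per nt was 1.90, 2.90, 16.9 and 4.70. The shortfall of short overhangs at that rate was 18, 24, 148 and 41 reads, or 22.2%, 19.5%, 16.9% and 8.13% of the site reads. If every missing read had been aligned as ending at the site, 63, 99, 726 and 463 site reads would remain.

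The splice-site end share, defined as reads ending at the site among those reads plus scored crossings of the introns, was low at 37 °C and higher at 30 °C. It was 0.920% (0.741 to 1.14) in prp2-1, 1.08% (0.902 to 1.28) in the 37 °C wild type, 5.03% (4.71 to 5.36) in replicate 1 and 4.89% (4.49 to 5.32) in replicate 2, with Wilson intervals over all introns. At introns with at least 10 reads in the library it was 0.618%, 0.728%, 2.61% and 1.91%. The 30 °C mean over all introns was 4.96% ± 0.0972 (SD, n = 2). The difference of prp2-1 from the 37 °C wild type was -0.156 points, with an interval (Newcombe) of -0.429 to 0.126, which includes 0. With each intron compared only with itself, the Mantel-Haenszel odds ratio of prp2-1 to wild type was 0.877 (0.636 to 1.21).

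Against replicate 1, the 37 °C wild type differed by -3.95 points (-4.33 to -3.57) and had an odds ratio by intron of 0.122 (0.0957 to 0.156). Against replicate 2 the difference was -3.81 points (-4.28 to -3.36) and the odds ratio 0.167 (0.130 to 0.215). Both differences were larger than that between the 30 °C replicates, which also differ in strain. There replicate 2 minus replicate 1 was -0.138 points (-0.659 to 0.398). Both are pooled values over unlike sequencing cells, whose shares ran from 4.40% to 13.4% in replicate 1 and from 2.69% to 8.81% in replicate 2. The gap between the pooled replicates, and the SD above, therefore understate the spread among cells. The replicates did differ when introns were compared with themselves, with an odds ratio of replicate 2 to replicate 1 of 0.726 (0.631 to 0.836).

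The site-to-flank ratio, which compares ends with ends, gave the same order of temperatures. The ratio in the 37 °C wild type was 0.564 times that in replicate 1 (0.450 to 0.708) and 0.396 times that in replicate 2 (0.310 to 0.505). The ratio in prp2-1 was 0.705 times that in the 37 °C wild type (0.510 to 0.975), a smaller gap. The spread between the 30 °C libraries was of similar size, with replicate 2 at 1.43 times replicate 1 (1.22 to 1.66).

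Each library was sequenced in several cells, and both 37 °C libraries shared the same 6. Over these cells the share ranged between 0.612% and 1.33% in prp2-1 and between 0.728% and 1.45% in the 37 °C wild type. Within a cell, prp2-1 minus wild type ranged from -0.838 to 0.306 points, and the interval excluded 0 in 1 cell of 6. The 6 cells of replicate 1 gave 4.40% to 13.4% and the 3 cells of replicate 2 gave 2.69% to 8.81%, so no 30 °C cell overlapped a 37 °C cell.

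Read length moved with the share. Both cells above 11% in replicate 1 had median spans of 134 nt, and the other 4 had 321 to 328 nt and shares of 4.40% to 4.57%. In replicate 2 the cell with a median span of 724 nt had a share of 2.69% (2.32 to 3.11), and those with 273 and 266 nt had 8.71% and 8.81%. That longest 30 °C cell had spans near those of the prp2-1 cells (754 to 809 nt) and below those of the 37 °C wild-type cells (862.5 to 947 nt). In the wild-type libraries the site-to-flank ratio spread less over cells in proportion to its size. In replicate 2 it was 43.6 (35.4 to 53.6) in the 724 nt cell and 56.0 and 57.5 in the others. In replicate 1 it lay between 33.1 and 42.7, and in the 37 °C wild type between 16.2 and 23.3. Over the prp2-1 cells it spread more in proportion than the share did, between 8.20 and 23.8. The part of length in the difference was not tested further. Temperature, library and sequencing cell cannot be told apart.

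**Figure D2:**
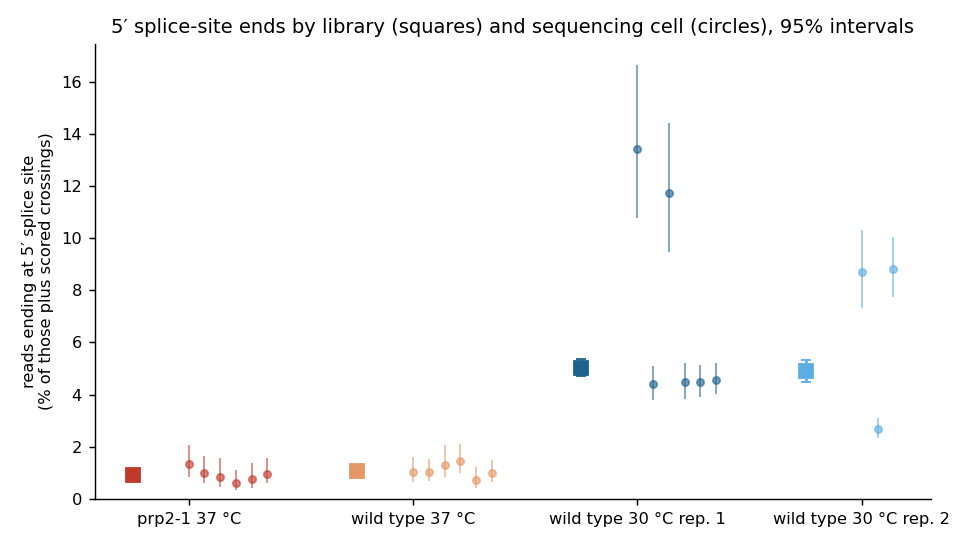
Share of reads ending at a 5′ splice site, in percent of those reads plus scored crossings, for each library (squares) and each sequencing cell (circles) with 95% Wilson intervals. All 12 cell values at 37 °C lie at or below 1.45%, and all 9 at 30 °C lie at or above 2.69%.

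The share differed with the distance of the site from the annotated gene start. At sites 100 nt or less from it, the share was 0.196%, 0.0559%, 0.457% and 0.232% in prp2-1, the 37 °C wild type, replicate 1 and replicate 2. At 101 to 300 nt it was 0.351%, 0.609%, 4.78% and 4.14%, and at 301 to 1000 nt 1.47%, 1.33%, 8.94% and 8.24%. Beyond 1000 nt it was 2.55%, 3.08%, 8.16% and 8.88%. The site-to-flank ratio did not rise from 101 nt on in the wild-type libraries. At 101 to 300, 301 to 1000 and over 1000 nt it was 25.0, 20.6 and 20.3 in the 37 °C wild type. In replicate 1 it was 42.9, 33.9 and 31.7, in replicate 2 53.6, 53.4 and 42.1, and in prp2-1 10.2, 16.2 and 15.1. At 100 nt or less it was 10.7, 3.33, 19.6 and 25.0 in the order of the shares, from few reads. The part of read length in the share was not tested.

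The 37 °C wild type stayed below both 30 °C replicates beyond the first distance class. The odds ratio to replicate 1 was 0.122 (0.0812 to 0.184) at 101 to 300 nt, 0.137 (0.104 to 0.182) at 301 to 1000 nt and 0.358 (0.242 to 0.528) beyond 1000 nt. To replicate 2 it was 0.142 (0.0933 to 0.216), 0.150 (0.112 to 0.201) and 0.326 (0.215 to 0.497). In every distance class the interval of the odds ratio of prp2-1 to the 37 °C wild type included 1. Of the members, 1 lay within 100 nt of its gene start, 105 at 101 to 300 nt, 151 at 301 to 1000 nt and 25 beyond. The 1 close member was intron 1 of pud1, a pseudouridine-5′-phosphatase gene, at 92 nt.

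**Figure D3:**
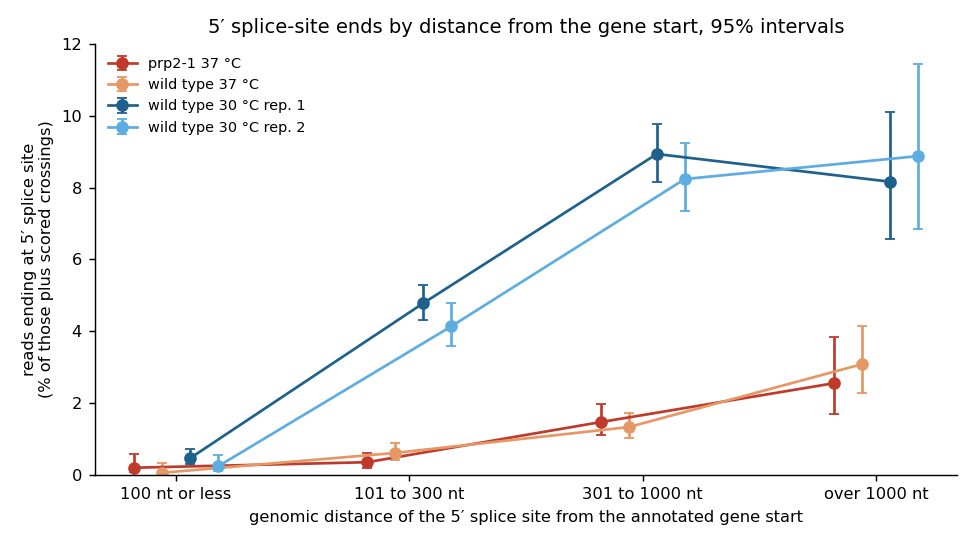
Share of reads ending at the 5′ splice site, in percent of those reads plus scored crossings, by genomic distance of the site from the annotated gene start, per library with 95% Wilson intervals. Both 30 °C lines reach above 8% beyond 300 nt, and both 37 °C lines stay at or below 3.08%.

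The 14 sites with the most ends held 6 to 13 each, nearly all of them at 30 °C. They were picked by ends summed over the libraries, most of which were 30 °C reads, so this split in part restates the choice. Intron 1 of ste13 (SPBC776.09; intron at chrII:3191656-3191701), whose product is a DEAD-box RNA helicase of the kind that promotes mRNA decapping in budding yeast, had 0 ends in prp2-1, 0 in the 37 °C wild type, 5 in replicate 1 and 8 in replicate 2. Both 37 °C libraries did cross this 46 nt coding intron, with 4 reads in prp2-1 and 9 in the wild type. Only 6 of its 13 ends were distinct reads. Its splice-site hexamer, GTGAGT, was shared by 83 of all introns (1.60%) and 10 members (3.55%).

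Intron 1 of mpe1 (SPBP8B7.15c), a 74 nt intron of the 5′ UTR, had 3 ends in prp2-1, 0 in the 37 °C wild type, 3 in replicate 1 and 4 in replicate 2. Its product is an RBBP6-family protein, and the budding-yeast protein of the same name acts in cleavage and polyadenylation. It held 3 of the 39 prp2-1 ends at members, with 6 distinct reads among its 10 ends. At nup45 intron 1, in a nucleoporin gene, replicate 1 had 1 end and replicate 2 had 7, with 0 in either 37 °C library.

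atf1 intron 1, 855 nt long in the 5′ UTR of the gene for a stress-response transcription factor, was the longest member and the longest of all introns. It had 0 ends in prp2-1, 0 in the 37 °C wild type, 3 in replicate 1 and 5 in replicate 2. Only 13 scored reads crossed it in the 4 libraries together, against 8 ends. A read must span the whole intron to be scored unspliced, while a site read need not.

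gnd1 (SPBC660.16), which encodes phosphogluconate dehydrogenase of the pentose phosphate pathway, carried members at introns 3 and 4. Intron 3 (817 nt) had 0, 0, 6 and 1 ends in prp2-1, the 37 °C wild type, replicate 1 and replicate 2, and intron 4 (172 nt) had 1, 0, 6 and 1. At intron 4 the 37 °C wild type had 0 ends among 30 reads and replicate 1 had 6 among 42. The 30 wild-type reads allow a share of up to 10% by the limit of 3 counts.

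nup61 intron 2, the 48 nt last intron of a nucleoporin gene, had 1 end in prp2-1, 2 in the 37 °C wild type, 3 in replicate 1 and 1 in replicate 2, against 1, 9, 7 and 2 scored crossings. It was the only one of the 14 with an end in the 37 °C wild type. Its hexamer GTAATG is the same as that of gnd1 intron 4.

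The other 7 sites had 6 or 7 ends each. ptl2 intron 1, in a triacylglycerol lipase gene, had 6 ends in replicate 1 and 1 in replicate 2. gua1 intron 1, in the gene for IMP dehydrogenase of guanine nucleotide synthesis, had 1 end in prp2-1, 5 in replicate 1 and 1 in replicate 2. SPAC30C2.08 intron 1 had 5 in replicate 1 and 1 in replicate 2, and dnt1 intron 1, in a nucleolar protein gene, had 3 in each. These 4 sites had 0 ends in the 37 °C wild type.

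srp68 intron 1, in the gene for a signal recognition particle subunit, had 1 end in replicate 1 and 5 in replicate 2, from 2 distinct reads. At both ribosomal protein sites most ends were from replicate 1, which also had more reads over them. At rps2502 intron 2 it had 7 ends, from 2 distinct reads, beside 94 crossings, and replicate 2 had 0 beside 36. At rpl2302 intron 1 replicate 1 had 5 ends beside 44 spliced and 7 unspliced crossings. Replicate 2 had 1 beside 2 spliced and 6 unspliced. None of these 3 sites had an end at 37 °C.

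**Figure D4:**
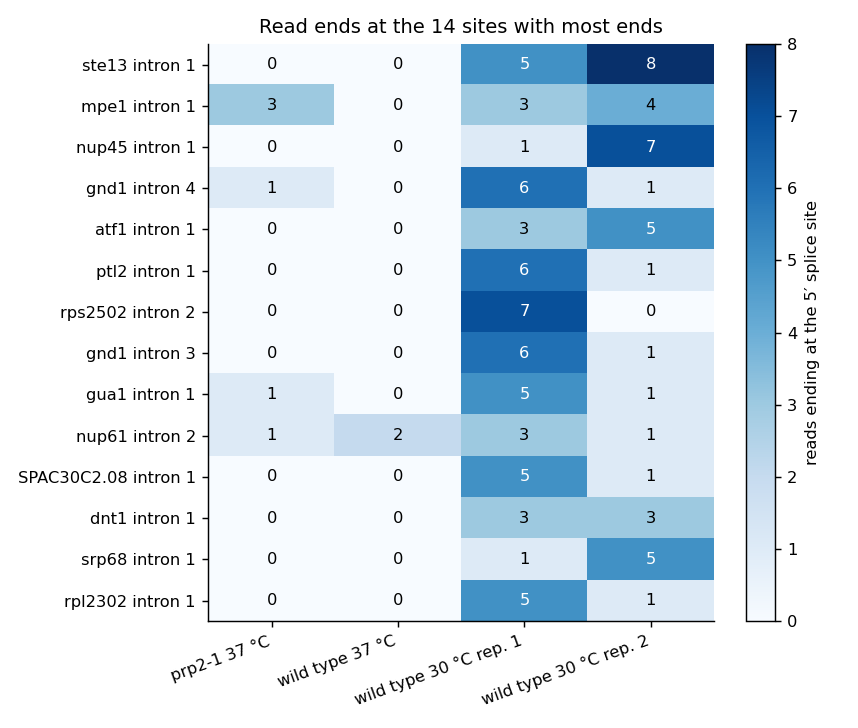
Number of reads ending at the 5′ splice site in each library (columns) at the 14 introns with the most ends (lines of the grid, most at the top), with the colour scale in reads. The prp2-1 column holds 6 reads in all and the 37 °C wild-type column 2, both at nup61.

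Single introns were compared between libraries by Fisher's exact test (two-sided), with ends at the site set against scored crossings at introns with at least 10 reads in both libraries. After Benjamini-Hochberg adjustment over all introns tested, none passed an adjusted p of 0.05. Between prp2-1 and the 37 °C wild type 70 introns were tested, 17 of them members, and 0 were called (0%), with 0 at an unadjusted p under 0.05. Between the 37 °C wild type and replicate 1, 100 introns were tested, 17 of them members, and 0 were called (0%), with 1 at an unadjusted p under 0.05 (1%). That intron was gnd1 intron 4, a member, whose ends the choice of members had used, so no p is given for it. Between replicates 2 and 1, 112 introns including 22 members were tested, 0 passed (0%), and the unadjusted p was under 0.05 at 0. Only 8 of the 70, 30 of the 100 and 32 of the 112 introns had an end in either library. The rest could not be called. Ends were few at those introns too, so the 0 calls do not show that single sites were alike.

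Relative to its own crossings, the share at a member over the 4 libraries ranged between 2.27% and 75%, with a median of 16.7%. All 282 members were crossed by scored reads, with a median of 12 crossings, and 172 members had 10 or more. At 12 members the ends outnumbered the crossings. The highest value, 75%, stood at spn1 intron 2 and usp107 intron 2, with 3 ends and 1 crossing each. usp107 encodes a U1 snRNP-associated protein, and 2 of its 3 ends were prp2-1 reads.

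Members were also counted over short lists of gene symbols, which do not hold every gene of a function. The cytoskeleton list holds only act1, nda2, nda3, atb2, cdc8 and cdc4. The splicing-factor list holds symbols beginning prp, cwf, smd, usp or lsm, with cdc5, cdc28 and uap56. Translation factors are symbols beginning tef, tif or eft, with cpc2. Members on no list include introns of spn1 (septin), myo52 (myosin), smf1 (Sm core protein) and sce3 (translation initiation factor). The ribosomal protein list holds symbols beginning rps or rpl, which leaves out the acidic stalk proteins of the large subunit (rpp0, rpp101 to rpp103 and rpp201 to rpp203) and mitochondrial ribosomal proteins. Of 78 introns on the ribosomal protein list 12 were members, and of 29 on the translation-factor list 4. The list of glycolysis, fermentation and the pentose phosphate pathway had 2 of 6 (both gnd1). On the cytoskeleton list 0 of 11 were members and on the splicing-factor list 3 of 88, beside 282 of all 5186 introns (5.44%). A count of ends grows with the reads over a gene, so the share among reads is given beside it. In ribosomal protein genes it was 0.679% in prp2-1, 0.203% in the 37 °C wild type, 1.26% in replicate 1 and 0.509% in replicate 2. In genes on none of the lists it was 0.910%, 1.14%, 6.03% and 5.56%.

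At 30 °C the share was lower in the rps and rpl genes also at matched distance from the gene start. In replicate 1 the Mantel-Haenszel odds ratio over 7 distance strata, ribosomal protein genes to genes on no list, was 0.340 (0.246 to 0.470). For replicate 2 it came to 0.193 (0.0857 to 0.434). In prp2-1 it was 2.07 (0.597 to 7.20) from 3 ends, and in the 37 °C wild type 0.608 (0.0842 to 4.39) from 1 end, and both intervals include 1. The members in this list had 2 to 7 ends, and rps2502 intron 2, with 150 reads including its ends, had a share of 4.67%. With the 8 introns of the stalk protein genes added, 15 of 86 introns were members, and the odds ratio was 1.91 (0.551 to 6.61) in prp2-1, 1.12 (0.272 to 4.64) in the 37 °C wild type, 0.367 (0.274 to 0.492) in replicate 1 and 0.203 (0.0959 to 0.432) in replicate 2. The added members were rpp202 intron 1 with 5 ends, rpp102 intron 2 with 4 and rpp201 intron 1 with 3, at 6.76%, 8% and 6.38% of their reads. The stalk genes by themselves had a share of 3.49% (1.961 to 6.144) in replicate 1, from 11 ends, with 0, 1 and 1 ends in prp2-1, the 37 °C wild type and replicate 2. The comparison of ribosomal protein genes was 1 of 10 class comparisons made in 4 libraries, 40 in all, whose intervals are not adjusted for their number.

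By place in the gene, 68 members were the only intron, 61 the first of several, 71 internal and 82 the last. The share at first introns of several was 0.506%, 0.512%, 3.88% and 4.22% in prp2-1, the 37 °C wild type, replicate 1 and replicate 2, and at internal introns 1.12%, 1.51%, 6.19% and 6.34%. It was lower at first introns in all 4 libraries, with intervals that excluded 0. First introns lie nearer the gene start, and at matched distance the direction turned at 30 °C: the odds ratio, first to internal, was 1.57 (1.25 to 1.99) for replicate 1, and for replicate 2 it was 1.65 (1.24 to 2.19). At 37 °C the matched intervals included 1.

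Members had a median intron length of 71 nt, against 56 nt for all introns and 61 nt for introns with at least 10 crossings. Since more reads over an intron give more ends, the share is again given by class. In introns over 200 nt it was 0.487%, 0.735%, 5.57% and 3.88% in prp2-1, the 37 °C wild type, replicate 1 and replicate 2, against 0.881%, 1.02%, 3.82% and 4.69% in introns of 50 nt or less. At matched distance the long introns were higher in replicate 1 (odds ratio 1.51, 1.17 to 1.94), while replicate 2 gave 0.878 (0.606 to 1.27), so the 30 °C replicates did not show 1 direction. At 37 °C the odds ratio was 0.888 (0.304 to 2.59) in prp2-1 and 1.02 (0.471 to 2.22) in the wild type. An unspliced crossing needs a read that spans the whole intron, which a site read does not, and matching on distance leaves this unchanged. Of the crossings of introns over 200 nt, 34.6%, 55.1%, 81.9% and 55.5% were spliced in the same order of libraries. At introns of 50 nt or less these were 27.5%, 49.9%, 58.0% and 46.4%. The part of read length was not tested.

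The 5′ splice-site hexamer GTAAGT stood at 29.4% of members and 27.7% of all introns, and GTATGT at 28.7% of members and 19.9% of all introns. GTAAGT sites had a share of 0.960%, 0.956%, 4.71% and 4.24% in prp2-1, the 37 °C wild type, replicate 1 and replicate 2, against 0.913%, 1.21%, 5.16% and 5.51% at GTATGT sites. At matched distance the interval of their odds ratio excluded 1 in replicate 2 alone, at 0.751 (0.585 to 0.964).

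A branch-point-like motif of the kinds shown above was found in 82.3% of members and 76.3% of all introns, at a median of 12 and 11 nt from its adenosine to the intron's last base. Longer introns can hold more chance matches, and members were longer. Introns with the adenosine over 20 nt from the end, such as srp68 intron 1, had a share of 0.327%, 2.20%, 6.00% and 7.44% in prp2-1, the 37 °C wild type, replicate 1 and replicate 2. Introns with 10 nt or less, such as gua1 intron 1, had 0.801%, 0.855%, 3.86% and 4.33%. At matched distance the odds ratio, far to near, was 3.02 (1.40 to 6.49) in the 37 °C wild type, 1.30 (0.889 to 1.91) in replicate 1 and 1.78 (1.14 to 2.78) in replicate 2. In prp2-1 it was 0.442 (0.0607 to 3.22), from 1 end at the 171 introns of the far class. The difference between prp2-1 and the wild type in this ratio was not tested.

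The reads that ended at a site also recorded the introns upstream of it. Among the 282 members 153 had an upstream intron, as did 2742 of all 5186 introns. Over all introns, 772 site reads crossed the adjacent upstream intron, 348 of them at members, and 417 carried it spliced. The spliced share was 58.7% (27 of 46 reads; 44.3 to 71.7) in prp2-1, 51.9% (40 of 77; 41.0 to 62.7) in the 37 °C wild type, 54.6% (214 of 392; 49.6 to 59.5) in replicate 1 and 52.9% (136 of 257; 46.8 to 58.9) in replicate 2. At members alone it was 45.0%, 38.5%, 53.8% and 58.6% in the same order. So about as many site reads had the preceding intron spliced as had it unspliced, in all 4 libraries. By the shortfall above, up to 22.2%, 19.5%, 16.9% and 8.13% of all site reads could be spliced reads with short overhangs. Their part in these shares, and in the comparisons of site reads below, was not tested.

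Reads that crossed the downstream intron were split far more unevenly. Where they carried it unspliced, the upstream intron was spliced in 12.7% of reads in prp2-1, 16.8% in the 37 °C wild type, 20.4% in replicate 1 and 13.9% in replicate 2. Where they carried it spliced, the upstream intron was spliced in 67.2%, 85.2%, 89.8% and 89.4%. Site reads lay between these kinds in every library.

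With intron and library held fixed, the odds that the upstream intron was spliced were 8.21 times (5.55 to 12.2) higher in site reads than in reads crossing unspliced. They were 0.127 times (0.0888 to 0.182) those in reads crossing spliced. Against crossing unspliced, each library alone had an odds ratio with an interval above 1, between 6.10 and 13.1. Against crossing spliced, the interval included 1 in prp2-1 alone, at 0.403 (0.114 to 1.43).

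Reads ending 1 to 50 nt from the site, which were in the same stretch of the gene, had the upstream intron spliced in 17.5%, 35.9%, 48.4% and 26.9% of cases in prp2-1, the 37 °C wild type, replicate 1 and replicate 2. On the exon side of the site the share was 20.8%, 48.4%, 58.8% and 38.1%, and on the intron side 13.4%, 14.8%, 25.4% and 9.14%. With intron and library held fixed the odds ratio of site reads to these flanking reads was 1.72 (1.21 to 2.46). It rested on replicate 2: without that library it was 1.30 (0.874 to 1.93), and without replicate 1 it was 6.20 (2.58 to 14.9). By library it was 5.50 (2.09 to 14.5) in replicate 2 but 1.10 (0.728 to 1.67) in replicate 1, and 4.33 (0.493 to 38.1) in prp2-1. In the 37 °C wild type the 5 informative introns gave no estimate.

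**Figure D5:**
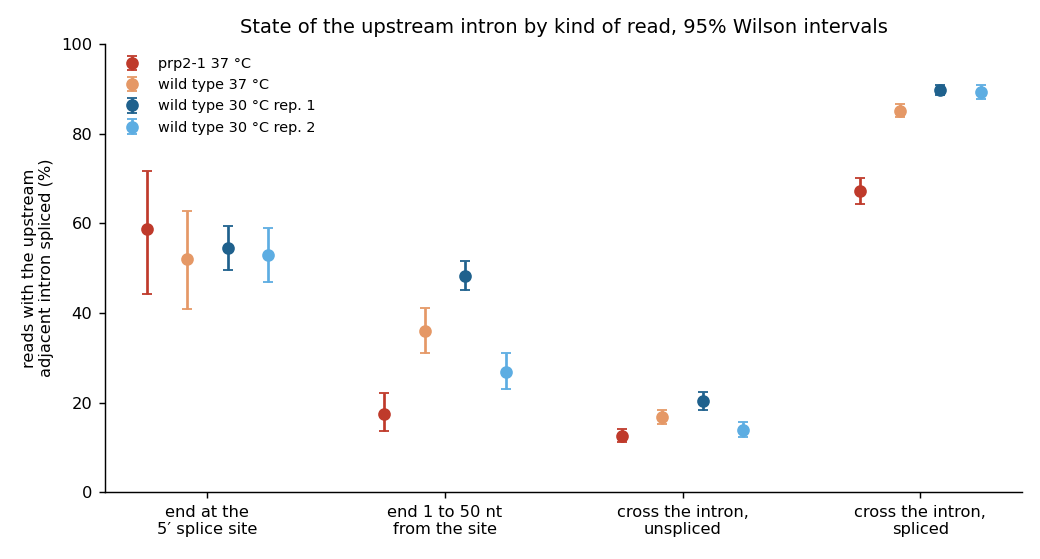
Percent of reads with the adjacent upstream intron spliced, by kind of read and library, with 95% Wilson intervals. Reads ending at the site lie between 51.9% and 58.7% in all 4 libraries, above the reads that cross the intron unspliced (at most 20.4%) and below those that cross it spliced (at least 67.2%).

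Site reads that crossed 2 or more upstream introns often carried them in different states. Such mixed reads were 55.0% (11 of 20; 34.2 to 74.2) in prp2-1, 48.3% (14 of 29; 31.4 to 65.6) in the 37 °C wild type, 51.2% (63 of 123; 42.5 to 59.9) in replicate 1 and 46.9% (45 of 96; 37.2 to 56.8) in replicate 2. Among reads ending in the flanks the mixed share was 18.2%, 22.0%, 15.8% and 12.5%. It was 21.0%, 18.0%, 16.4% and 17.3% among reads crossing unspliced, and 31.8%, 23.9%, 18.0% and 16.8% among those crossing spliced. The intervals of site reads and of each other kind did not overlap, except between site reads and those crossing spliced in prp2-1 (27.3 to 36.7). More mixed reads are possible where spliced and unspliced introns are about equal in number, as in site reads, than in either kind of crossing read. In replicate 1 flanking reads had the adjacent intron spliced in 48.4% of cases, near the 54.6% of site reads. The mixed shares here and below were not matched by intron, and the part of the spliced share was not tested.

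The mixed share of site reads was also above that of flanking reads at a fixed number of upstream introns, from few reads at 37 °C. Among reads that crossed exactly 2, the mixed share of site reads was 50% (7 of 14 reads; 26.8 to 73.2) in prp2-1, 43.8% (7 of 16; 23.1 to 66.8) in the 37 °C wild type, 49.4% (41 of 83; 38.9 to 59.9) in replicate 1 and 39.3% (24 of 61; 28.1 to 51.9) in replicate 2. Among flanking reads it was 11.1% (5.96 to 19.8), 17.2% (10.9 to 26.1), 13.7% (9.86 to 18.7) and 9.40% (5.33 to 16.1). It was 16.03%, 14.6%, 12.7% and 13.8% among reads crossing unspliced, and 28.8% (23.4 to 34.8), 17.7%, 16.6% and 13.7% among those crossing spliced. The intervals of site reads overlapped those of flanking reads in the 37 °C wild type and those of reads crossing spliced in prp2-1, and no other of these pairs. Which of the 2 introns was spliced varied: the farther one alone in 31 site reads of replicate 1 and 20 of replicate 2, and the nearer one alone in 10 and 4. In prp2-1 the farther one alone was spliced in 1 and the nearer one alone in 6, and in the 37 °C wild type in 4 and 3. These reads come from different introns in each library, and the difference between libraries in this order was not tested.

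The 3 introns with the most site reads crossing an upstream intron, 7 each, showed different pictures. At gnd1 intron 3, the upstream intron was spliced in 0 of 6 site reads in replicate 1 and 0 of 1 in replicate 2. Flanking reads of this intron in replicate 1 were in the same state, with 0 of 8 spliced. Only 4 of its 7 ends were distinct reads. At gnd1 intron 4, intron 3 was spliced in 5 of 5 site reads in replicate 1 and 1 of 1 in replicate 2, and in 0 of 1 in prp2-1. Flanking reads of intron 4 in replicate 1 again had the state of the site reads, with 3 of 3 spliced. Of the 8 ends at intron 4, 6 were distinct reads. So at these gnd1 introns the states in replicate 1 were not particular to reads ending at the site. At nup61 intron 2, intron 1 was spliced in 0 of 1 in prp2-1, 1 of 2 in the 37 °C wild type, 0 of 3 in replicate 1 and 0 of 1 in replicate 2. Its flanking reads differed from the site reads, with 1 of 1 spliced in replicate 1 and 1 of 1 in replicate 2. Of its 7 ends, 5 were distinct reads. In reads that carried nup61 intron 2 spliced, intron 1 was spliced in 1 of 1 in prp2-1 and 3 of 6 in the 37 °C wild type. In replicate 1 it was spliced in 4 of 5 such reads and in replicate 2 in 2 of 2.

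Most site reads began near a gene start: 76.5%, 67.5%, 76.1% and 79.4% started within 50 nt of it in prp2-1, the 37 °C wild type, replicate 1 and replicate 2. In reads ending 1 to 50 nt away the figures were 64.1%, 61.2%, 69.7% and 71.7%. Site reads and flanking reads were of similar median span, at 585 against 624.5 nt in prp2-1, 660 against 719 nt at 37 °C in the wild type, 306 against 319 nt in replicate 1, and 367.5 against 370 nt in replicate 2. Counted by coordinates, distinct site reads were 80 of 81 in prp2-1, 122 of 123 in the 37 °C wild type, 808 of 874 in replicate 1 and 465 of 504 in replicate 2, so reads with identical coordinates were mostly from 30 °C. Site reads whose name occurs on more than 1 line were found at 37 °C, with 19 in prp2-1, 23 in the 37 °C wild type, 0 in replicate 1 and 0 in replicate 2. With repeated names left out, the splice-site end share was 0.825% in prp2-1 and 0.991% in the 37 °C wild type.

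The introns whose 5′ splice sites gathered ends were themselves not less spliced in crossing reads. At members the spliced share was 34.7% (31.9 to 37.7) in prp2-1, 55.5% (52.7 to 58.2) in the 37 °C wild type, 74.3% (72.2 to 76.3) in replicate 1 and 49.95% (46.9 to 53.0) in replicate 2. Introns with no end gave 30.5%, 51.3%, 65.9% and 48.0%. The intervals of members and of introns with no end did not overlap in the 3 libraries other than replicate 2. Members were crossed by more reads, with medians of 2, 3, 3 and 2 crossings per intron against 1 in each library, and the part of depth in this difference was not tested.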

How the data were processed

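Nuclear RNA without poly(A) was measured in 4 libraries. Per the labels' protocols, the authors depleted polyadenylated RNA with oligo-dT and then ribosomal RNA, attached an adaptor to RNA 3′ ends, amplified template-switched cDNA over few PCR cycles, and used Pacific Biosciences sequencing. The deposited files give each aligned read as coordinates and blocks, without normalisation. The deposited score is 40 in every line and was not used. Cutadapt 1.8 is named in the submitters' processing notes. The aligner and genome build are not given in the sources used here. Introns, genes and sequences came from RefSeq ASM294v3. As a check of the build, 87.7% to 93.6% of read gaps of 20 nt or more per library coincided exactly with annotated introns.

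Exon gaps under 20 nt were not counted as introns. A crossing read was spliced where a gap matched the intron within 5 nt at both ends, and unspliced where aligned blocks covered at least 90% of it with no gap of 20 nt or more. Distances from the gene start are genomic. Shares have Wilson intervals, differences Newcombe intervals, and stratified odds ratios Robins-Breslow-Greenland intervals, all at 95%. Fisher's exact tests used Benjamini-Hochberg adjustment. Python 3.11.15, scipy 1.17.1 and numpy 2.4.6 were used, and the routines were tested on simulated data. Libraries were grouped by title. Named introns are the 12 with most ends (ties kept, at most 2 per gene), any intron called, and the 3 with most site reads crossing an upstream intron. Names outside that rule (gad8, rps13, pud1, spn1, usp107, rpp202, rpp102, rpp201, myo52, smf1, sce3) were picked after their values were seen. The members and gene lists were chosen with earlier results of these data known. The alternatives tried covered identical reads, repeated read names, windows, flanks, depth, sequencing cells and left-out libraries. Overhang subtraction, sites past 300 nt, reads starting inside the gene, the rpp genes and left-out libraries for the upstream odds ratio were added after the data were seen.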

Additional observations from a re-analysis of the deposited data

How the results depend on the processing

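With 3 ends required there were 102 members, with 5 ends 24, and with ends in 2 or more libraries 166; leaving out 1 library left 86 to 265 (all smaller by construction). Allowing ends within 1 nt gave shares of 1.39% in the 37 °C wild type, 6.02% in replicate 1, 5.49% in replicate 2 and 5.75% for the 30 °C mean, with site-to-flank ratios of 6.00 in prp2-1, 9.56, 16.5 and 21.5. Introns with at least 10 reads gave shares of 0.618% in prp2-1, 0.728%, 2.61% and 1.91%, and sites at least 300 nt past the gene start gave 1.71%, 1.75%, 8.79% and 8.32%, with a 30 °C mean of 8.56%; the cause was not tested. Less the shortfall of short overhangs, the shares were 0.717%, 0.868% and 4.21% in prp2-1, the 37 °C wild type and replicate 1, the 30 °C mean was 4.36%, and replicate 2 minus replicate 1 turned to 0.296 points. The 30 °C mean was 4.69% with identical reads counted once and 4.83% with reads starting inside the gene. The ratio with a flank of 50 positions was 43.0 in replicate 1. With exon-side flanks it was 16.1 in the 37 °C wild type, 25.9 and 41.4, and with intron-side flanks 27.7, 59.5 and 67.7. The difference prp2-1 minus 37 °C wild type turned to 0.306 and 0.0401 points in 2 of 6 cells and its interval excluded 0 in another, at -0.838; by intron, the odds ratio of replicate 2 to replicate 1, 0.726, excluded 1. The upstream odds ratio was 9.67 in prp2-1 and 6.10 in replicate 1 against reads crossing unspliced, and below 1 against reads crossing spliced, at 0.403 in prp2-1, 0.0939 in replicate 1, 0.144 in replicate 2 and 0.127 over all. Left-out libraries moved the upstream odds ratio to flanking reads between 1.30 and 6.20. The other 132 values kept their direction and their side of the threshold, or moved by less than their error, including 0 calls by Fisher's exact test in each comparison. No paired analysis was possible because the groups compared share fewer than 2 replicate numbers. With the rpp stalk protein genes added, the odds ratio of ribosomal protein genes in the 37 °C wild type was 1.12 in place of 0.608, both with intervals that include 1. Single introns were tested only at the 70 to 112 introns with at least 10 reads in both libraries of a pair. Most of these had no end at the site in either library, so the 0 calls say little.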

Other observations

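Reads that began at a splice junction were also more frequent than at nearby positions. 5′ ends lay at the last base of the intron in 22 reads of prp2-1, 26 of the 37 °C wild type, 187 of replicate 1 and 44 of replicate 2, at 5.95 (3.64 to 9.28), 7.78 (4.94 to 11.8), 16.8 (14.2 to 19.9) and 9.28 (6.57 to 12.8) times their flanks. At the first base of the downstream exon 13, 11, 64 and 18 reads began. The ratios to the flanks there were 3.32 (1.73 to 5.80), 2.97 (1.46 to 5.44), 4.67 (3.56 to 6.04) and 3.33 (1.95 to 5.37).

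Ends at the intron's base 6 were picked after their values were seen. There were 20 in prp2-1, at 20 introns, 14 in the 37 °C wild type, at 14 introns, 25 in replicate 1, with 5 of them at 1 intron, and 7 in replicate 2, at 7 introns. The mean over the 23 other intron positions from 2 to 25 was 4.52, 3.61, 12.5 and 6.96 ends. Base 6 lay above this mean in prp2-1, the 37 °C wild type and replicate 1 and was near it in replicate 2, and no test was made.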
